A study of Mus musculus with 14 samples.

Results

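Collagen chains leave the endoplasmic reticulum and knit into fibers with the help of enzymes, and 10 genes for such enzymes are described here: the collagen prolyl 4-hydroxylase alpha subunits P4ha1, P4ha2 and P4ha3, the lysyl hydroxylases Plod1 and Plod2, and the lysyl oxidases Lox, Loxl1, Loxl2, Loxl3 and Loxl4. They were chosen by symbol, as a family list, and all 10 were found among the 16181 protein-coding genes of the deposited CPM table. CPM is the number of reads of a gene for each 1000000 reads counted in the library. The data are polyA RNA-seq libraries of a mouse embryonic stem cell (mESC) line with an Osr1-GFP reporter, in which a short hairpin RNA (shRNA) targeted either LacZ (shLacZ, the control) or Dis3l2 (shDis3l2), the gene of a 3′ to 5′ exoribonuclease that degrades RNA with uridine tails. Cells in LIF/2i, the medium that keeps them undifferentiated, were taken at d0. Embryoid bodies (EBs), aggregates formed in hanging drops with serum after LIF/2i removal, were taken every 2 days from d2 to d12. With 1 library for each line and day, 14 in all, the ratios on single days rest on unreplicated libraries. Each line is a single shRNA line, and an effect of the line cannot be told apart from an effect of the knockdown.

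Prolyl 4-hydroxylases convert prolines of collagen to hydroxyproline, which makes the triple helix stable at body temperature. Each enzyme is a tetramer of alpha subunits, encoded by P4ha genes, with the beta subunit P4hb. Lysyl hydroxylases modify lysines inside the endoplasmic reticulum, whereas lysyl oxidases are secreted copper enzymes that oxidize lysines of collagen and elastin so that the fibers can be cross-linked. P4ha1, P4ha2, Plod2 and Lox are among the genes known to be induced in hypoxia.

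Between 7178712 and 39888099 reads were counted per library, and 3 counts, taken as the floor, were 0.0752 to 0.418 CPM. Dis3l2, the targeted gene, was at 13.7% of its shLacZ level in the shDis3l2 library of d0, and at 28.1% at d2, 32.1% at d4 and 55.2% at d6. At d8 this level was 97.1%, at d10 94.98% and at d12 75.4%, so the late libraries are called here by their labels and not as depleted of the RNA. EBs hold many cell types, and in bulk RNA fewer cells of a type and less RNA per cell cannot be told apart. From d6 to d12 the summed CPM of 10 mesenchyme markers was 322 to 603 in shLacZ and 475 to 1733 in shDis3l2, and that of 6 smooth muscle markers was 71.6 to 161 and 474 to 2139. The sum of 10 visceral endoderm markers ran the other way, at 2875 to 7018 in shLacZ and 569 to 1989.5 in shDis3l2, and that of 8 parietal endoderm markers was 2757 to 11698 and 1556 to 7039.5. For 10 pluripotency markers it was 529 to 643 in shLacZ and 176 to 442 in shDis3l2, ranges that do not overlap, whereas the mesenchyme ranges do. No gene of the mesenchyme, endoderm and pluripotency lists was at 0 counts on these days, and Myh11 of the smooth muscle list was at 0 in shLacZ d10. The part of these cell types in the results below was not tested.

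The alpha subunits P4ha1 and P4ha3 moved in opposite directions between the lines at the late days, as described below, and their promoters are shown for that reason. P4ha1 lies at chr10:59323296-59373304 and P4ha3 at chr7:100285520-100319699, both on the plus strand of GRCm38. The 250 bases before each start are given 5′ to 3′ from RefSeq (GRCm38.p6), at chr10:59323046-59323295 and chr7:100285270-100285519. Capitals mark ACGTG, searched on both strands, which is a form of the core of the element that hypoxia-inducible factors (HIF) bind. The other form of the core, GCGTG, was not searched and is not marked.
P4ha1: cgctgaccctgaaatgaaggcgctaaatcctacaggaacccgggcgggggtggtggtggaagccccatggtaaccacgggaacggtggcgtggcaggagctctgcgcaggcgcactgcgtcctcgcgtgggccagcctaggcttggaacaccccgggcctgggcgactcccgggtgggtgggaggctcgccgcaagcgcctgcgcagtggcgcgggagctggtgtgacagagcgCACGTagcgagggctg
P4ha3: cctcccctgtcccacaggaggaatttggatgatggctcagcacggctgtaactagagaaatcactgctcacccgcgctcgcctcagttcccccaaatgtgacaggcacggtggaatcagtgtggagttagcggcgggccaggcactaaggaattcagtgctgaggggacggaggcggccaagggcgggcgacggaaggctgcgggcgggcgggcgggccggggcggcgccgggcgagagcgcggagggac
The P4ha1 window held the letters 1 time, 16 bases before the start, and the P4ha3 window did not hold them. The table had a promoter for 5 of the 10 genes, and the window of P4ha2 was the only other one of them to hold the motif, 78 bases before the start that RefSeq gives. That start lies inside P4ha2 as the count table places it (chr11:54100095-54131665), so the P4ha2 window, chr11:54100674-54100923, is not upstream of the whole gene. Of all 32851 promoter windows of this length, 16.6% held it. A match describes letters only.

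Each of the 5 hydroxylases was higher at d12 than at d0 in both lines. P4ha1, the alpha subunit of the major form of the enzyme, was at 48.5 (d0), 28.2 (d2), 43.7 (d4), 199 (d6), 356 (d8), 486 (d10) and 574 CPM (d12) in shLacZ. In shDis3l2 it was at 30.4, 24.6, 33.7, 121, 198, 299 and 362 CPM on the same days. The shDis3l2 library was thus the lower of the pair on 7 of 7 days, and the 95% interval of the ratio, which covers counting error only, lay below 1 on 7 of 7. The d0 difference depended on scaling. Its log2 fold was -0.67 with library totals and -0.29 with the size factors of DESeq2, where the medians of all genes were -0.32 and 0.08. At d12 P4ha1 was at 0.631 times the shLacZ level (95% exact interval 0.606 to 0.657), and the lowest ratio was 0.556 at d8 (0.534 to 0.579).

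Plod2, which hydroxylates lysines of the collagen telopeptides, showed a like difference at the late days. From d0 to d12 it was at 27.2, 147, 96.5, 227, 513, 678 and 729.8 CPM in shLacZ. In shDis3l2 it was at 9.48, 162, 63.6, 150.4, 305, 382 and 429 CPM. The shDis3l2 library was lower on 6 of 7 days, d2 being the exception, where the ratio was 1.101 (1.05 to 1.15). At d12 the ratio was 0.588 (0.567 to 0.6103). At d0 it was 0.349 (0.303 to 0.401), a log2 fold of -1.52 where the median over all 12154 genes compared was -0.32, and that median was 0.08 with the size factors of DESeq2.

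The other hydroxylases differed less. Plod1, a lysyl hydroxylase of the helical part of collagen, was at 44.9 CPM in shLacZ and 33.5 in shDis3l2 at d0, and lowest at d2 with 15.1 and 12.7. It then rose to 126 and 124 CPM at d12, where the ratio was 0.988 (0.914 to 1.07), and its intervals lay below 1 on 2 days and above 1 on 1 day. A day below 1 was d0, where the log2 fold of Plod1 was -0.42 with library totals and -0.03 with the size factors of DESeq2. P4ha2, an alpha subunit that forms a second enzyme with P4hb, rose from 6.97 CPM at d0 to 466 at d12 in shLacZ and from 4.72 to 359.8 in shDis3l2. Its ratio passed from 1.26 (1.19 to 1.33) at d8 through 0.991 (0.943 to 1.04) at d10 to 0.772 (0.7399 to 0.806) at d12, so its direction turned between late days.

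P4ha3, the least abundant alpha subunit, had 1 read in each d0 library. From d2 to d12 it was at 0.303, 0.975, 3.76, 7.69, 5.45 and 6.05 CPM in shLacZ. In shDis3l2 it was at 0.1402, 0.242, 5.37, 20.7, 14.4 and 8.43 CPM. The shDis3l2 library was the higher one on each day from d6, with a d8 ratio of 2.69 (2.205 to 3.31), a d10 ratio of 2.64 (1.93 to 3.700) and a d12 ratio of 1.39 (0.995 to 1.96). The d12 interval includes 1.

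**Figure D1:**
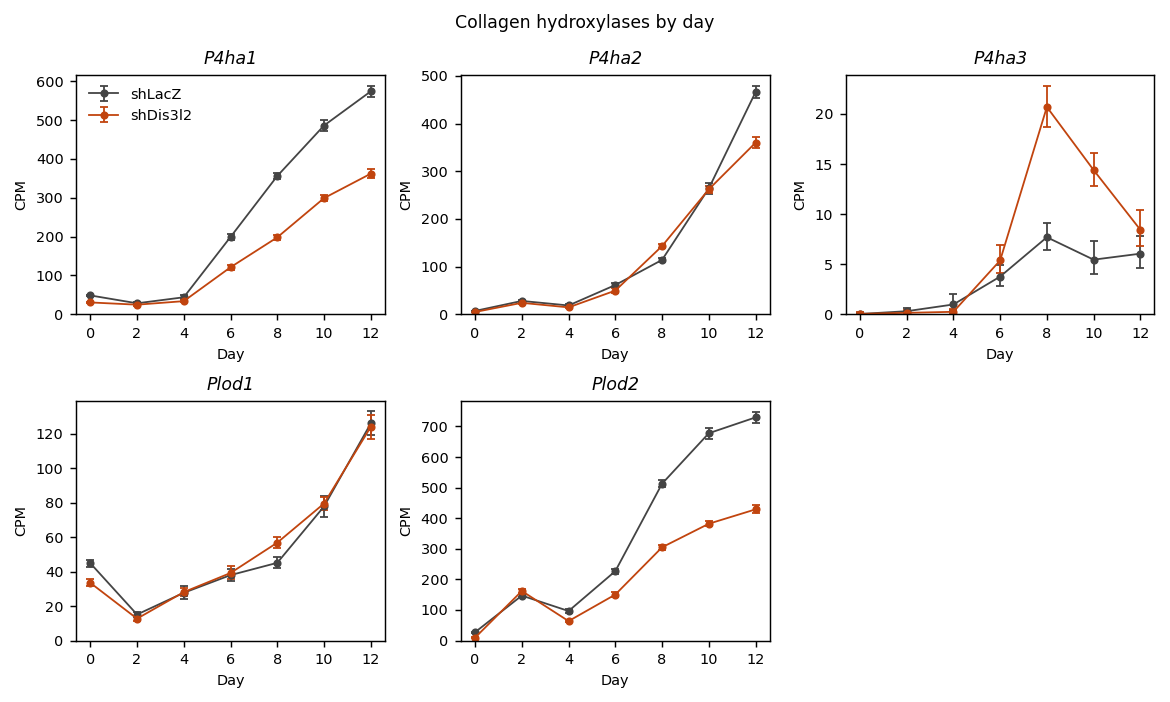
CPM of the 5 hydroxylase genes (vertical axis, linear, a scale for each gene) against day (horizontal axis) in shLacZ (grey) and shDis3l2 (orange), 1 library per point, with 95% exact intervals of the count. P4ha1 and Plod2 end at 574 and 729.8 CPM in shLacZ against 362 and 429 in shDis3l2, while Plod1 ends at 126 and 124.

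Lox, Loxl1, Loxl3 and Loxl4 were higher in shDis3l2 at the late days, and Loxl2 differed less. Lox, the founding member of the family, had no reads in either d0 library, and was at 1.33 CPM in shLacZ and 1.402 in shDis3l2 at d2. It had 0 reads in shLacZ and 2 in shDis3l2 at d6, so no fold is given. In shLacZ it was at 0.296, 2.54 and 2.18 CPM on the last 3 days, against 2.95, 42.8 and 42.3 in shDis3l2. The 2 late shDis3l2 libraries of d10 and d12 stood above every shLacZ library, with ratios of 16.8 (10.95 to 27.3) and 19.4 (12.7 to 31.3).

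Loxl1, which acts on elastin, separated earlier. From d0 to d12 it was at 1.003, 1.18, 0.697, 3.98, 5.62, 4.12 and 2.78 CPM in shLacZ. In shDis3l2 it was at 1.397, 0.888, 0.773, 16.4, 33.1, 40.6 and 34.2 CPM. The lines overlapped up to d4, and from d6 the lowest shDis3l2 value exceeded the highest shLacZ value. The ratio was 4.12 (3.01 to 5.71) at d6 and 5.89 (4.75 to 7.39) at d8. It was 9.86 (7.002 to 14.3) at d10 and 12.3 (8.37 to 18.8) at d12.

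Loxl3 followed from d8. It was between 0.978 and 4.32 CPM in all 7 shLacZ libraries. In shDis3l2 it was at 2.45, 7.07, 13.5 and 14.5 CPM from d6 to d12. The ratio was 1.21 (0.677 to 2.15) at d6 and 2.599 (1.85 to 3.71) at d8. It reached 6.56 (4.02 to 11.4) at d10 and was 4.72 (3.19 to 7.19) at d12.

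Loxl4 rose from d2 to d4 in both lines and was lower again at d6, and at d4 it was higher in shLacZ. Its highest level was at d4 in shLacZ and at d10 in shDis3l2. It was at 9.19 CPM in shLacZ and 3.72 in shDis3l2 at d4, a ratio of 0.405 (0.287 to 0.571). At d10 the order was turned, at 2.30 against 8.86 CPM and a ratio of 3.85 (2.398 to 6.54). At d12 shLacZ had 3 reads and shDis3l2 44, a ratio of 13.8 with the wide interval of 4.44 to 69.7.

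Loxl2, which also oxidizes lysines of collagen IV, was the most abundant of the family per kilobase from d6 on, and its level at d12 was alike in the lines. In shLacZ it was at 2.93 CPM at d0 and at 77.7, 192, 257 and 321 from d6 to d12. In shDis3l2 it was at 1.62 CPM at d0 and at 84.1, 334, 352 and 325 on the late days. The ratio was 1.74 (1.67 to 1.82) at d8 and 1.37 (1.31 to 1.44) at d10, and at d12 it was 1.01 (0.965 to 1.06).

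**Figure D2:**
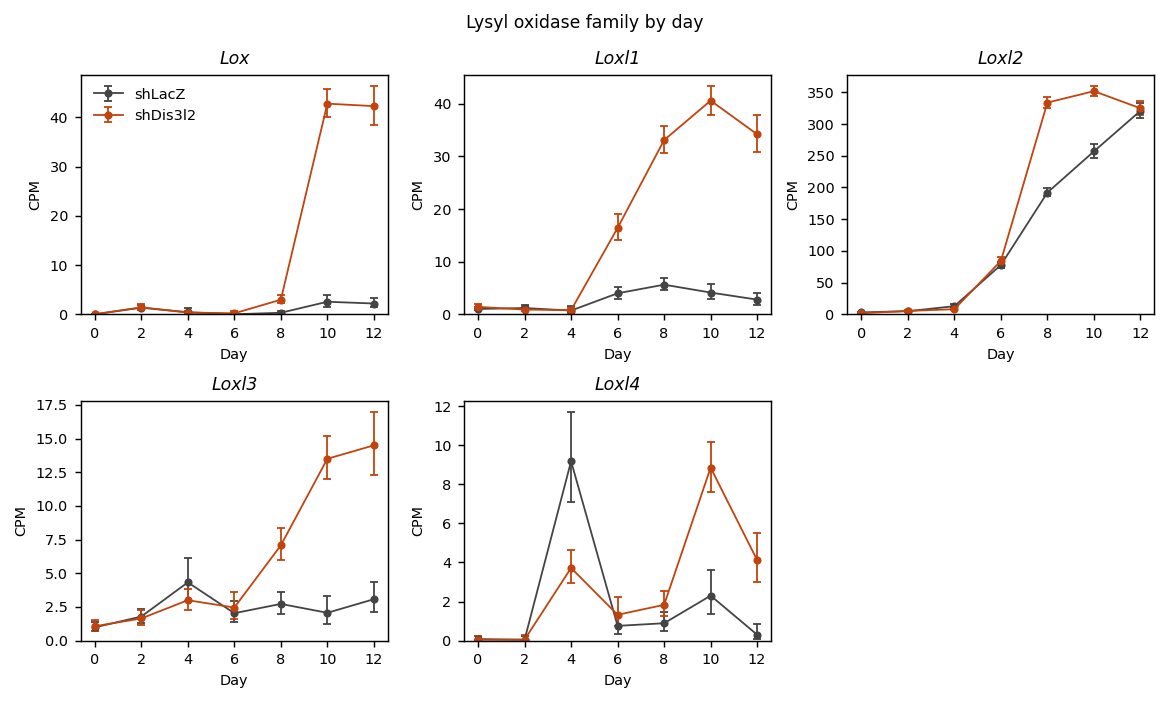
CPM of the 5 lysyl oxidase genes (vertical axis, linear, a scale for each gene) against day (horizontal axis) in shLacZ (grey) and shDis3l2 (orange), 1 library per point, with 95% exact intervals of the count. Lox and Loxl1 end at 42.3 and 34.2 CPM in shDis3l2 against 2.18 and 2.78 in shLacZ, while Loxl2 ends at 325 and 321.

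A gene was counted as higher or lower on a day when the fold was at least 3 and its CPM was at least 1 in 1 of the 2 libraries. At d0, d2 and d4 none of the 10 genes passed in either direction. Among all genes compared 0.576% were higher and 2.25% lower at d0, 0.114% and 0.129% at d2, and 0.362% and 1.67% at d4. At d6 Loxl1 alone was higher, against 2.70% of all genes, and none was lower, against 4.22%. At d8 Lox and Loxl1 were higher, against 5.47% of all genes, and none was lower, against 3.69%. At d10 and at d12 Lox, Loxl1, Loxl3 and Loxl4 were higher, 4 of 10, against 8.65% and 8.09% of all genes. None was lower on these days, against 3.12% and 1.40%.

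**Figure D3:**
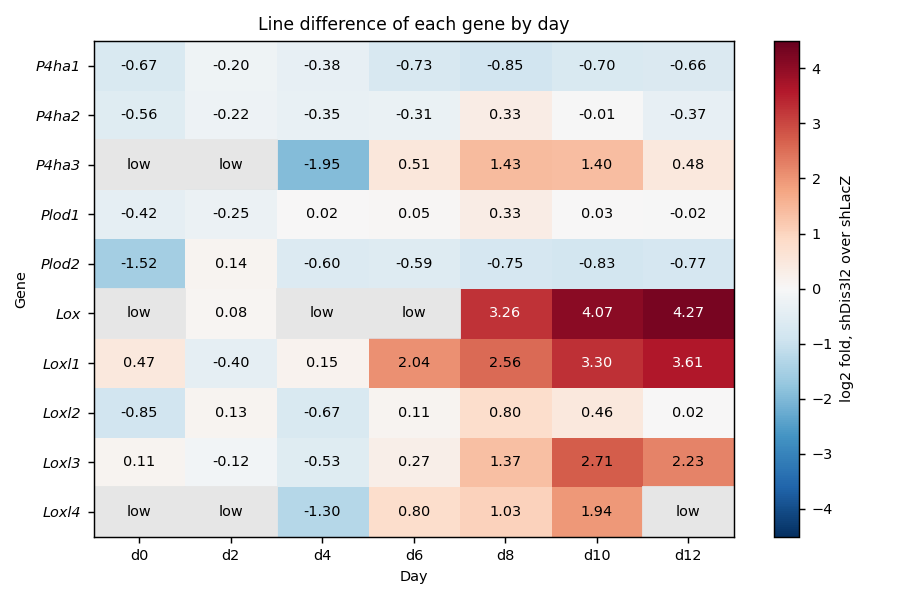
Log2 fold of shDis3l2 over shLacZ for each gene (rows) on each day (columns), computed with a prior count of 0.25; red is higher and blue lower in shDis3l2, and grey cells marked low have 3 counts or fewer in a library. Lox and Loxl1 reach 4.27 and 3.61 at d12, whereas P4ha1 stays between -0.85 and -0.20 on all days.

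Most of the 10 genes were higher late than early in both lines. At d12 against d0, all 10 genes in shDis3l2 were at least 3-fold higher, against 43.0% of all genes, and 7 of the 9 compared in shLacZ, against 31.5%. Of these, Lox with 0 reads and P4ha3 with 1 read in each d0 library, and Loxl4 with 1 read in shDis3l2 at d0, rest on d0 values under the floor of 3 counts. Loxl4 had 3 reads at both d0 and d12 in shLacZ and was not compared. These counts are for library totals, and with TMM scaling 6 genes passed in shLacZ. Plod1 in shDis3l2, at 3.699-fold (3.395 to 4.03), lay near the 3-fold criterion and did not pass with TMM scaling. Loxl3 in shLacZ, at 3.14-fold (1.897 to 5.17), also lay near it and did not pass with TMM scaling. With TMM scaling 4144 of 14335 genes passed in shDis3l2 and 3199 of 14012 in shLacZ. The median log2 change over all genes was 1.16 in shDis3l2 and 0.64 in shLacZ with library totals and 0.22 and 0.01 with TMM scaling. The medians were 5.87 over the 10 genes compared in shDis3l2 and 4.75 over the 9 in shLacZ with library totals, and 4.99 and 4.15 with TMM scaling. P4ha2 rose 66.8-fold (59.2 to 75.7) in shLacZ and 76.2-fold (63.8 to 91.8) in shDis3l2, and Loxl2 109.5-fold (91.1 to 133) and 200.4-fold (148 to 277). Loxl1 differed, with 2.77-fold (1.65 to 4.602) in shLacZ and 24.5-fold (17.4 to 35.3) in shDis3l2. From d6 to d12 the rise passed 3-fold for 5 of 9 genes in shLacZ, against 6.28% of all genes, and for 7 of 10 in shDis3l2, against 14.3%. In shDis3l2 this number was 4 with TMM scaling and 4 by DESeq2 size factors, since P4ha1 (3.01), Loxl4 (3.12) and Plod1 (3.16) lay near the 3-fold criterion. P4ha2 rose over this time by 7.604-fold (7.06 to 8.202) and 7.26-fold (6.62 to 7.96). Loxl1 was at 0.697 times its d6 level (0.425 to 1.12) in shLacZ, an interval that includes 1, and at 2.08 times (1.74 to 2.51) in shDis3l2.

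To set the late difference against its variation over days, counts of all genes at d6, d8, d10 and d12 were fitted with edgeR, with day as a block. These days stand in for replicates, so the test does not compare the lines with other cultures. Of the 10 genes, 5 were higher in shDis3l2 with a Benjamini-Hochberg adjusted p under 0.05, and 2 were lower. Over all 16016 genes tested 19.7% were higher and 19.2% lower. The largest change among the 10 genes was that of Lox, with a log2 fold of 4.03 (SE 0.22) and an edgeR adjusted p of 0.000245. It was followed by Loxl1 at 2.83 (SE 0.25, edgeR adjusted p = 0.000696), Loxl4 at 1.77 (SE 0.42, edgeR adjusted p = 0.01697) and Loxl3 at 1.69 (SE 0.37, edgeR adjusted p = 0.0127). P4ha3 was at 0.99 (SE 0.22, edgeR adjusted p = 0.0139). P4ha1 was lower at -0.74 (SE 0.06, edgeR adjusted p = 0.000632), and so was Plod2 at -0.74 (SE 0.07, edgeR adjusted p = 0.0006897). Loxl2 at 0.35 (SE 0.13, edgeR adjusted p = 0.0809), P4ha2 at -0.09 (SE 0.12, edgeR adjusted p = 0.594) and Plod1 at 0.09 (SE 0.08, edgeR adjusted p = 0.4004) did not pass. The call of P4ha3 was lost without d8 (log2 fold 0.80) or d10 (0.83), that of Loxl3 without d8 (1.81) or d10 (1.36), and that of Loxl4 without d10 (1.67). Without day as a block, Loxl1 and Loxl3 alone kept an edgeR adjusted p under 0.05. The value was then 0.07502 for Lox (log2 fold 4.26), 0.0874 for Loxl4 (1.98), 0.0955 for P4ha3 (1.10), 0.218 for P4ha1 (-0.73) and 0.208 for Plod2 (-0.77). Without both d8 and d10, the days on which Dis3l2 reads were near the shLacZ level, no gene of the whole table passed in edgeR, with 1 residual degree of freedom, and 3149 had an unadjusted p under 0.05. The log2 folds were then 4.25 for Lox, 2.78 for Loxl1, -0.71 for P4ha1 and -0.70 for Plod2.

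A second edgeR fit over all 14 libraries asked whether the line difference changed between d0 to d4 and d6 to d12. It passed towards higher for Lox (log2 change 3.91), Loxl1 (2.55) and Loxl4 (2.83) and towards lower for P4ha1 (-0.49). Among all 18939 genes tested 5.13% passed towards higher and 5.70% towards lower. None of these 4 genes passed when d2 was left out, with log2 changes of 4.27 for Lox, 2.24 for Loxl1, 2.97 for Loxl4 and -0.37 for P4ha1. Loxl4 also did not pass without d4 (1.98), d8 (3.12) or d10 (2.73), nor did P4ha1 without d4, d8, d10 or d12 (-0.51 to -0.44). For Plod2 the change was -0.28 (SE 0.27, edgeR adjusted p = 0.5404), so a lower Plod2 at the late days was not shown to differ from the early days.

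Reads per kilobase of gene length were used to compare the genes with each other within a library, where scaling between libraries does not enter. At d12 of shLacZ the order was led by P4ha1 at an RPKM (CPM per kilobase) of 139.6, Plod2 at 135, P4ha2 at 74.7 and Loxl2 at 59.5, and in shDis3l2 by P4ha1 at 88.1, Plod2 at 79.6, Loxl2 at 60.2 and P4ha2 at 57.7. The remaining genes were at 18.6 or below. Lox was at 0.454 in shLacZ and 8.8 in shDis3l2 on that day, and Loxl1 at 0.842 and 10.4.

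The ratio of P4ha1 to P4ha2 per kilobase was 10.6 (9.31 to 12.02) at d0 of shLacZ and 9.77 (8.08 to 11.9) in shDis3l2, intervals that overlap. At d8 it was 4.74 (4.504 to 4.99) and 2.097 (1.997 to 2.202), and at d12 1.87 (1.799 to 1.94) and 1.53 (1.46 to 1.598). P4ha2 made up 16.5% of the alpha subunit reads per kilobase at d6 and 34.5% at d12 in shLacZ, and 20.4% and 38.8% in shDis3l2. Plod2 over Plod1 was 7.29 (6.87 to 7.75) in shLacZ and 4.34 (4.08 to 4.62) in shDis3l2 at d12. At d0 Plod1 was the more abundant of the 2 lysyl hydroxylases, with a ratio of 0.7598 (0.704 to 0.8198) and 0.355 (0.307 to 0.408).

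Within the lysyl oxidase family, Loxl2 made up 96.7% of the reads per kilobase at d12 of shLacZ and 72.1% in shDis3l2. Lox and Loxl1 took 0.738% and 1.37% in shLacZ, and 10.5% and 12.4% in shDis3l2. Loxl1 over Loxl2 per kilobase was 0.0142 (0.009399 to 0.0205) in shLacZ and 0.172 (0.154 to 0.192) in shDis3l2. At d4 the family had another make-up in both lines, with Loxl4 at 37.9% in shLacZ and 26.6% in shDis3l2.

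**Figure D4:**
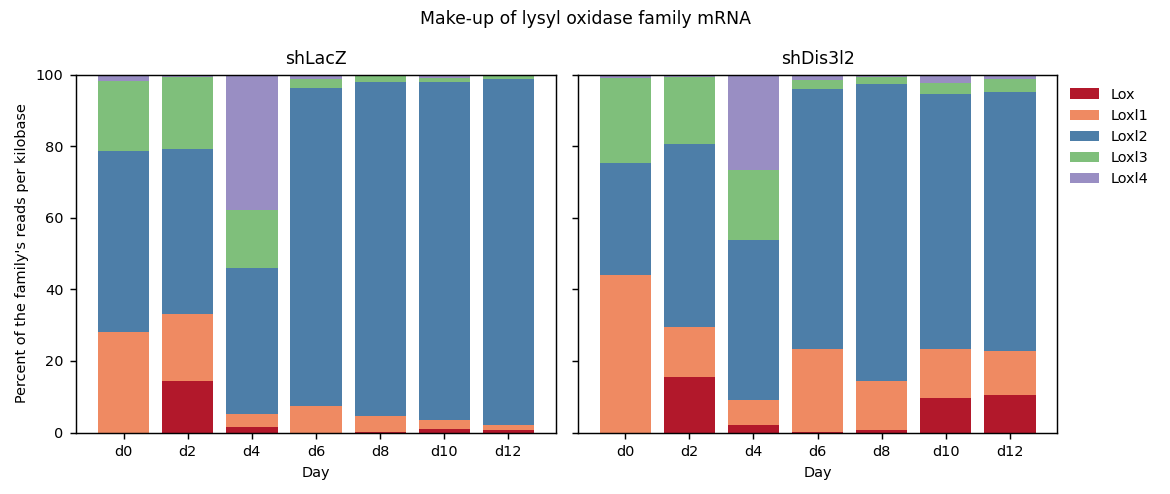
Share of each gene in the summed reads per kilobase of the 5 lysyl oxidase genes (vertical axis, percent) by day (horizontal axis), in shLacZ (left) and shDis3l2 (right), 1 library per bar. Loxl2 fills 96.7% of the shLacZ bar at d12 and 72.1% of the shDis3l2 bar, where Lox and Loxl1 hold 10.5% and 12.4%.

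The other genes of collagen assembly are given from 8 lists, with calls of the late edgeR fit. That fit called 19.7% of all genes higher and 19.2% lower. Of the 10 fibrillar collagen genes tested, 8 were higher and 1 lower, with a median log2 fold of 2.49 against 0.01 over all genes. Col1a1 and Col1a2, the chains of type I collagen, were at 146 and 125 CPM in shLacZ and at 3539 and 3113 in shDis3l2 at d12, and Col3a1 was at 493 and 7939. Of the 4 collagen IV chains tested, 2 were higher and 2 lower. Col4a1 and Col4a2, the abundant chains of basement membranes, were lower in shDis3l2 on the log2 scale. The differences were 1.33 (SE 0.09, edgeR adjusted p = 0.000385) and 1.29 (SE 0.10, edgeR adjusted p = 0.000533). Col4a5 and Col4a6 were higher in shDis3l2 by 1.64 and 1.48.

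All 10 elastic fiber genes and lysyl oxidase partners tested were higher, with a median of 2.15. Over all genes 19.7% were higher and 19.2% lower. Postn, the gene of periostin, was at 120.3 CPM in shLacZ and 788 in shDis3l2 at d12, Fn1, that of fibronectin, at 1129 and 2391, and Fmod, that of fibromodulin, had 3 reads and 625. Of 7 procollagen propeptide processing genes tested, 3 were higher and 1 lower. The proteinases Bmp1 and Adamts2 were higher in shDis3l2 by 1.13 and 3.25 and the enhancer Pcolce by 2.60 on the log2 scale. Of 14 other collagen-modifying enzymes and chaperones tested, 6 were higher and 5 lower, with a median of 0.05. Fkbp10, a collagen chaperone, was higher in shDis3l2 by 2.31 (SE 0.19, edgeR adjusted p = 0.000574). P3h3, a prolyl 3-hydroxylase family member, was higher by 1.65, and P4hb, the beta subunit, was lower by 0.23. Serpinh1, the collagen chaperone HSP47, was at -0.00 (edgeR adjusted p = 0.972).

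Of 17 hypoxia-induced genes tested, a list that leaves out the hydroxylases and oxidases, 8 were lower and 2 higher, with a median of -0.26. In the late edgeR fit 19.2% of all genes were lower and 19.7% higher. Ldha was lower in shDis3l2 by 0.81 and Pfkfb4 higher by 0.69, and Slc2a1 was at -0.26 (SE 0.38, edgeR adjusted p = 0.619). Of the 5 HIF hydroxylases and P4htm, 2 were higher, Hif1an among them at 0.66, and none was lower, with Egln2 at 0.07 and Egln3 at -0.06. Of 8 TGF-beta response genes, 3 were higher and 1 lower. Tgfbi was higher in shDis3l2 by 2.98 and Tagln by 2.78, and Ctgf was lower by 1.12. Tagln is also 1 of the 6 smooth muscle markers, all of which were higher in this fit.

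**Figure D5:**
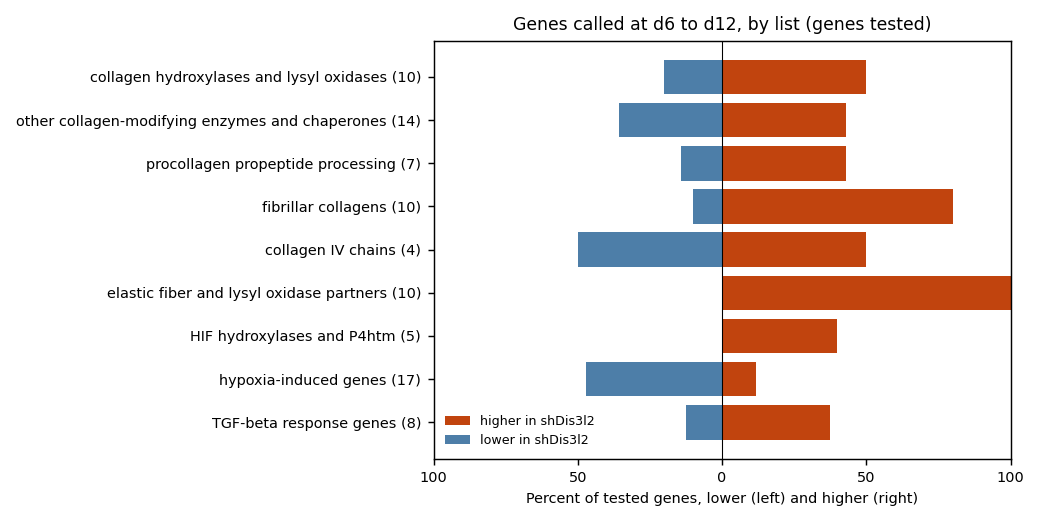
Percent of the tested genes of each list that were higher (right, orange) or lower (left, blue) in shDis3l2 at d6 to d12 by the edgeR fit, with the number tested in brackets. All 10 elastic fiber genes and lysyl oxidase partners were higher, and 8 of 17 hypoxia-induced genes were lower. Over all genes tested 19.7% were higher and 19.2% lower.

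For the 9 genes that reached 10 CPM in a library, which leaves out Loxl4 with a highest value of 9.19 CPM, those with the most similar pattern were found by Pearson's r of log2(CPM + 1) over the 14 libraries, among the 11561 genes at that level. The libraries share days and lines, so r is a description. P4ha1 was nearest to Txndc12 (r = 0.994), Npas2 and Pxn, and P4ha2 to Tmem109 (r = 0.987), Ggcx and Fam129b. P4ha3 was nearest to Prkg1 (r = 0.990), Aff2 and Postn. Plod1 was nearest to Psap (r = 0.977), Rpn2 and Kit, and Plod2 to Rab21 (r = 0.981), Osbp and Necap1. Among the oxidases Lox was nearest to Hic1 (r = 0.967), Clca3a1 and Pde1a, and Loxl1 to Anxa6 (r = 0.983), Crispld2 and Tgfbi. Loxl2 was nearest to Pag1 (r = 0.991), Plat and Fndc3b, and Loxl3 to Iigp1 (r = 0.969), Slc8a1 and Nsg1.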

How the data were processed

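PolyA RNA of 14 libraries was compared by line and day. The authors used Subread for alignment to GRCm38 and featureCounts for counting, and deposited raw counts for 50686 genes. The authors also deposited edgeR CPM of 16181 genes, which match reads plus 0.25 divided by the sum over those genes. The deposited column names carry shm5 for the shDis3l2 line. All per-sample columns were used.

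CPM was computed from counts and library totals. Folds used a prior count of 0.25, and ratios carry 95% Clopper-Pearson intervals, which cover counting error only since reads are not independent molecules. Fits were made in R 4.3.3 with edgeR 4.0.16, by its quasi-likelihood test after TMM scaling and the filterByExpr filter, with Benjamini-Hochberg adjustment over all genes tested and the SE taken from the log2 fold and F. DESeq2 1.42.0 was an alternative. The named genes were all members, Dis3l2, up to 4 per list by level or fold at d12, and the 3 nearest patterns. Members and lists were chosen with earlier results of these data known. On simulated data the late fit recovered 200 of 200 changed genes among 16016, with 22 other calls. The interaction fit recovered 192 of 200 among 18939, with 11 other calls. How far these numbers hold for the deposited libraries was not tested.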

Additional observations from a re-analysis of the deposited data

Results flagged for a closer look

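For 4 genes the edgeR interaction fit found another line difference at d6 to d12 than at d0 to d4. Lox changed by 3.91 (SE 0.48, edgeR adjusted p = 0.00474) and Loxl1 by 2.55 (SE 0.47, edgeR adjusted p = 0.0122) on the log2 scale. Loxl4 changed by 2.83 (SE 0.71, edgeR adjusted p = 0.0324), with the shLacZ library the higher one at d4 and the shDis3l2 library at d6 to d12. At d6 the Loxl4 ratio was 1.76 (0.725 to 4.42), from 10 reads in shLacZ and 14 in shDis3l2, and this interval includes 1. P4ha1 changed by -0.49 (SE 0.12, edgeR adjusted p = 0.0314), and it was lower in shDis3l2 on 7 of 7 days. None of the 4 passed without d2, where Lox was at 4.27, Loxl1 at 2.24, Loxl4 at 2.97 and P4ha1 at -0.37. None passed without the day block, where they were at 4.07, 2.57, 3.08 and -0.45. Loxl4 did not pass without d4 (1.98), d8 (3.12) or d10 (2.73), and P4ha1 did not pass without d4, d8, d10 or d12 (-0.51 to -0.44).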

How the results depend on the processing

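The alternatives were TMM and DESeq2 size factors, the deposited CPM, other CPM minimums and a fold of 2 for the day and time comparisons, and DESeq2, other scalings, no filter, no day block and leaving out each day for the fits. Of the values that count genes, 173 stayed within 1.5 times and 29 did not, and no called direction was reversed. With a fold of 2, 1 gene was lower at d0, 1 was lower at d4 and 5 were higher at d8. Among all genes these numbers were 1243 of 12154, 661 of 12998 and 1569 of 13455. With no minimum CPM, 1 was lower at d4 and 2 were higher at d6, against 708 and 747 of all 16181 genes. With a minimum of 5 CPM 1 was higher at d8, against 455 of 11235. With the deposited CPM 1 was lower at d4, against 241 of 13169. From d6 to d12 in shDis3l2, 4 genes in place of 7 passed with TMM scaling, and 4 with the size factors of DESeq2. Among all 13723 genes compared 1750 and 1746 passed. In the late fit, leaving out each day gave 2 to 6 genes called higher and 2 lower each time. Among all 15893 to 16621 genes tested these numbers were 1624 to 3364 and 1576 to 3116. Without the day block 2 of the 10 genes were higher and 0 lower, against 1895 and 1439 of all 16016 genes. In the interaction fit, leaving out each day gave 0 to 4 of the 10 genes called higher and 0 to 1 lower. Among all 18403 to 19870 genes tested these numbers were 315 to 1174 and 209 to 995. Without d2 none of the 10 genes was called in either direction, against 315 higher and 209 lower of 18902 genes. DESeq2 called 5 of the 10 genes higher, against 1338 of all 33800 genes. No filter gave 6 higher and 0 lower, against 1788 and 1491 of 33800. Library totals gave 0 lower, against 420 of 18939. No day block gave 0 in either direction, with 713 genes of the table at an unadjusted edgeR p under 0.05 and none called. Without d8 and d10 together, an alternative chosen after seeing the data, 0 genes were called in either direction in both fits, while the interaction fit called 22 genes higher and 2 lower among all genes and the late fit none. The cause was not tested. The 1 library per line and day and the low counts of Lox and P4ha3 before d6 and of Loxl4 at d0 and d2 limit what could be compared. In shLacZ the counts stayed low from d6 to d12, at 0, 5, 21 and 22 reads for Lox and 10, 15, 19 and 3 for Loxl4. The day block pairs the libraries of a day, and the fit without it is given above.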
